A study of Sorghum bicolor with 34 samples.

Results

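Lateral root apex transcripts are the transcripts of sorghum BTx623 roots that were higher in both lateral root apex libraries than in any library from the main seminal root. They were selected on measured abundance: the lower of the 2 lateral libraries had to hold at least 2 TPM (a transcript level corrected for transcript length and scaled to the same total in every library) and at least 2 times the highest of the other 8 libraries. Of 47110 transcript IDs, 13085 held 2 TPM or more in both lateral libraries and 35 met the whole rule. When each other region was put in the place of the lateral root apex, 348 transcripts met it for the elongation zone and 28 for the root apex, each over 4 libraries. The excess of the lateral libraries over the other 8 is therefore given as a description, with no test.

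Plants of the reference cultivar BTx623 were grown under limiting phosphorus (LP, 2.5 μM phosphate) or sufficient phosphorus (SP, 45 μM phosphate), and poly-A RNA was sequenced at day 10. The groups were the lateral root apex under LP and SP with 1 library each, and the elongation zone and the root apex under LP and SP with 2 libraries each. All 10 libraries come from this 1 cultivar, with plants pooled within a library, and nothing in the labels says whether same-numbered libraries share plants. The methods say that the elongation zone was cut from the same seminal roots as the root apex, but not which libraries share plants. The labels call the elongation zone the intermediate root, and root apex LP replicate 2 has a root apex title and a whole root tissue tag.

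Lateral roots start from dividing pericycle cells inside the parent root, push through its outer layers and then build a meristem and root cap of their own. A lateral tip thus holds the same kinds of tissue as a main root tip, in a thinner organ that takes up much of a plant's phosphate. In many plants a shortage of phosphate changes the number and growth of lateral roots.

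The libraries held 10114584 to 19067049 estimated counts. Median fragment lengths were 168.8 and 168.0 bases in the lateral LP and SP libraries and 168.1 and 166.7 bases in replicate 2 of the elongation zone under LP and SP, against 185.4 to 189.8 bases in the other 6. A library could lack transcripts that all 9 others held at 1 CPM (TMM-scaled counts relative to library size) or more: the lateral SP library lacked 384 of these and replicate 2 of the LP elongation zone lacked 190, and each of the remaining libraries lacked 3 to 35. Each lateral group is 1 library, so its values have no replicate check. The methods speak of 2 biological replicates, and the deposited name of the lateral SP data carries replicate number 2 where its title gives 1, so the replicate number of that library is in doubt. In bulk tissue, more cells of a type and more RNA per cell cannot be told apart.

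None of the 35 transcripts is paired with a gene by the supplementary tables, and none was found in the RefSeq gene table, so they are given by ID and no function is assigned. Gene lists by Arabidopsis match could not be applied to them for the same reason. KXG19628 and OQU91119 are named as the top of the ranking, EER97591 and EES11478 as the called transcripts, and a few others as the edges of the rule. All remaining transcripts were chosen for naming after their values were seen.

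The 35 transcripts together held 2573 TPM in the lateral LP library and 3854 TPM in the lateral SP library. Their sum was 337 and 826 TPM in the elongation zone under LP, 175 and 242 TPM in the elongation zone under SP, 552 and 691 TPM in the root apex under LP, and 731 and 696 TPM in the root apex under SP. EES10193 alone accounts for most of the gap between the lateral libraries, whose sums without it were 2108 TPM under LP and 2259 TPM under SP. In the lower lateral library 8 transcripts held 100 TPM or more and 19 held under 10 TPM, so the set spans abundant and scarce RNAs.

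**Figure D1:**
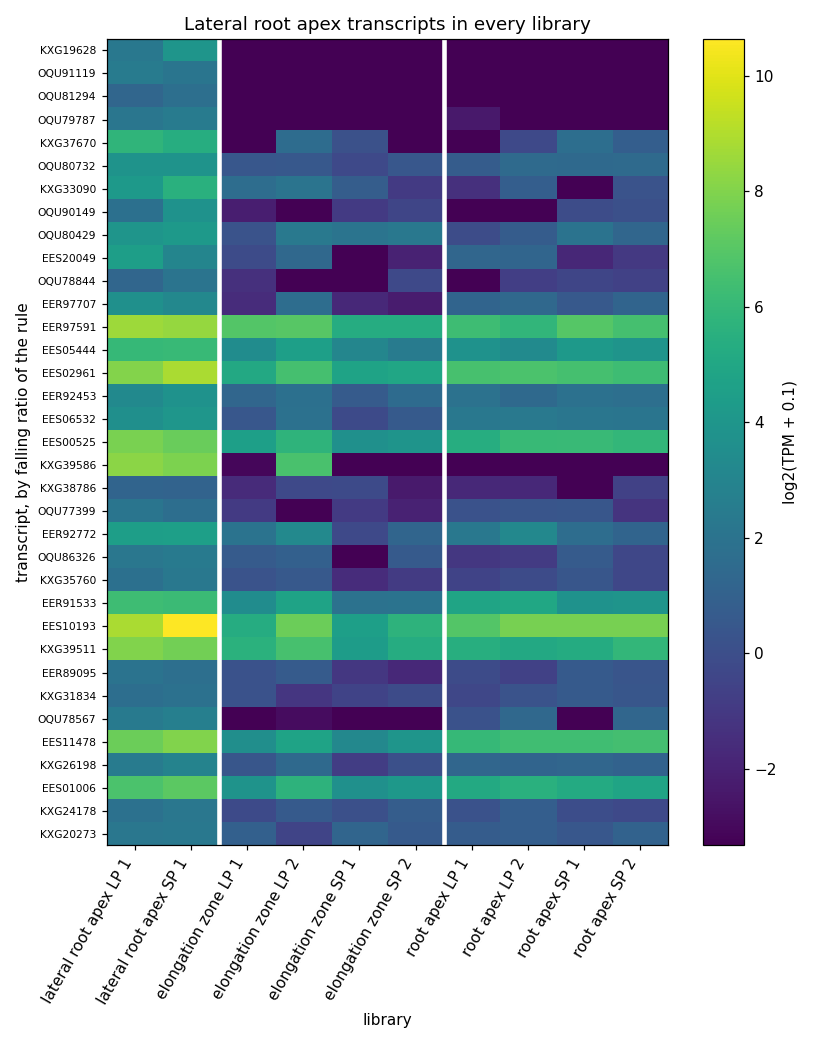
Color gives log2(TPM + 0.1) of the 35 transcripts (rows, by falling ratio of the lateral minimum to the highest library elsewhere) in the 10 libraries (columns, with white lines between regions). The top rows are near the floor outside the lateral libraries, while most other rows hold a lower level in every region.

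A small subset was at or near 0 counts outside the lateral root apex. KXG19628 held 4.72 TPM in the lateral LP library and 15.3 TPM in the lateral SP library (217 and 804 estimated counts). It had 0 counts in all 8 other libraries, where a count of 0 allows up to 0.0668 to 0.132 TPM (3 counts, counting error only). OQU91119 held 5.61 TPM under LP and 4.17 TPM under SP in the lateral root apex and no whole count elsewhere, with limits of 0.0438 to 0.0866 TPM. These are the transcripts with the highest ratios of the rule.

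OQU81294 had 2.34 TPM in the lateral LP library and 3.36 TPM in the lateral SP library, again with no whole count elsewhere and limits of 0.144 to 0.286 TPM. OQU79787 reached 4.36 TPM under LP and 5.41 TPM under SP in lateral tips, against at most 0.0904 TPM, or 0.891 counts, in any other library. KXG37670 was more abundant, with 55.5 TPM under LP and 41.4 TPM under SP in the lateral libraries. Its level elsewhere came and went between replicates. It was 0 and 2.92 TPM in the elongation zone under LP, 1.02 and 0 TPM in the elongation zone under SP, 0 and 0.734 TPM in the root apex under LP, and 3.22 and 1.72 TPM in the root apex under SP.

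KXG39586 showed a sharp split between replicates of 1 group. It held 298 TPM in the lateral LP library, 239 TPM in the lateral SP library and 99.6 TPM in elongation zone LP replicate 2, where 3327 counts were assigned to it. Elongation zone LP replicate 1 had 0.519 counts and the other 6 libraries had at most 0.104 counts. The 3 libraries that carry this transcript are among the 4 with the shorter fragments, and elongation zone SP replicate 2, the remaining one, had 0.0240 counts. The part of fragment length in this pattern was not tested.

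OQU78567 was present in the lateral root apex and in part of the root apex. It held 5.31 TPM under LP and 6.40 TPM under SP in lateral tips, at most 0.0388 TPM in the elongation zone, 1.06 and 2.52 TPM in the root apex under LP, and 0 and 2.38 TPM in the root apex under SP. Together with KXG39586 and the 4 transcripts nearest to 0 elsewhere, it makes up the 6 transcripts at 0 counts in 4 or more of the 8 other libraries. All 6 had estimated counts that were not whole (further than 0.01 from a whole number) in at least 1 lateral library, against 3 of the other 29. A count that is not whole means that kallisto divided reads between transcripts that share sequence, so for these IDs the level depends on how reads were shared out, and an isoform or a close copy could hold part of the signal.

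In the remaining transcripts the lateral level stood above a measurable level in the main root. Counts were found in all 8 other libraries for 21 of the 35. EES10193 had the highest lateral level, with 465 TPM under LP and 1595 TPM under SP. It held 39.6 and 180.1 TPM in the elongation zone under LP, 23.5 and 52.0 TPM in the elongation zone under SP, 120.4 and 217 TPM in the root apex under LP, and 219 and 221 TPM in the root apex under SP. The lower lateral library was thus 2.10 times the highest other library, while the lateral SP library stood far above all others.

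EES02961 held 262 TPM under LP and 473 TPM under SP in lateral tips, against 27.5 to 91.5 TPM in the elongation zone and 78.8 to 101.3 TPM in the root apex. EES00525 held 228 TPM under LP and 178 TPM under SP in lateral tips, against 12.6 to 55.0 TPM in the elongation zone and 41.9 to 71.6 TPM in the root apex. EES02961 held 2.58 times and EES00525 2.49 times the highest other library in the lower lateral library, where the rule asked for at least 2 times. By TPM they differed in which phosphorus level was higher, but with TMM scaling both were lower under LP, at log2 fold changes of -1.33 for EES02961 and -0.12 for EES00525, neither past the test (adjusted p = 0.396 and 1).

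Most transcripts lay near the edge of the rule. Of the 13085 transcripts at 2 TPM or more in both lateral libraries, 410 (3.13%) were above all 8 other libraries in both. The lower lateral library was under 3 times the highest other library for 24 of the 35, and 3 times or more, or without counts elsewhere, for 11. Just inside the fold limit were EES01006, with 102.9 TPM against 51.3 TPM, and EES11478, with 178.9 TPM against 88.5 TPM. Just outside were OQU88906 and EER98425, which have the same values (6.99 TPM against 3.57 TPM, a ratio of 1.96). At the abundance limit, KXG38786 was inside with 2.05 TPM in the lower lateral library and KXG36020 outside with 1.65 TPM.

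The library that set the highest level outside the lateral root apex was most often elongation zone LP replicate 2, for 14 transcripts. Of the 32 with a count that rounds to at least 1 elsewhere, the highest library was from the elongation zone for 17 and from the root apex for 15. Without elongation zone LP replicate 2, 79 transcripts met the rule. Without any single one of the other 7, 36 to 51 did.

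The transcripts were shorter than others expressed in lateral tips. Their median length was 1255 bases (quartiles 900 and 1687), against 1763 bases (1215 and 2480) for the other 13050 transcripts at 2 TPM or more in both lateral libraries. This difference was not tested.

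The first comparison set LP against SP within the lateral root apex. The rule took the lower of these same 2 libraries, which favours transcripts with like levels in both, so the size of the difference over the set is a description and nothing is read from how few passed. By TPM, 12 of the 35 were higher under LP and 23 lower, and 28 differed by less than 1.5 times. In the edgeR fit with TMM scaling, which sets libraries level by the bulk of their transcripts, 2 were higher and 33 lower. The direction therefore turns with the scaling for 10 transcripts. The median log2 fold change of the 35 was -0.18 by TPM beside 0.44 over 13078 tested transcripts at 2 TPM or more in both lateral libraries, and -0.66 by TMM-scaled CPM beside -0.04 over the same transcripts. The 20 most abundant transcripts took 9.21% of the counts of the lateral LP library and 16.1% of those of the lateral SP library, and the part of this in the shift was not tested.

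No lateral difference passed the test. Quasi-likelihood testing with edgeR called 0 of 35, with 0 at an unadjusted p under 0.05, and DESeq2 called 0, with 1 at an unadjusted p under 0.05. Over all tested transcripts edgeR called 1.78%, and DESeq2 called 3935 of 24629. The largest differences were those of OQU90149, at 3.50 TPM under LP and 14.0 TPM under SP, and of EES10193 and KXG19628, given above. Their log2 fold changes were -2.47 (SE 1.17, adjusted p = 0.301), -2.26 (SE 1.25, adjusted p = 0.357) and -2.17 (SE 0.69, adjusted p = 0.251). EES20049 went the other way, with 22.6 TPM under LP and 7.98 TPM under SP (log2 fold change 1.02, SE 1.17, adjusted p = 0.668), and was the only transcript over 2 times higher under LP by TPM.

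**Figure D2:**
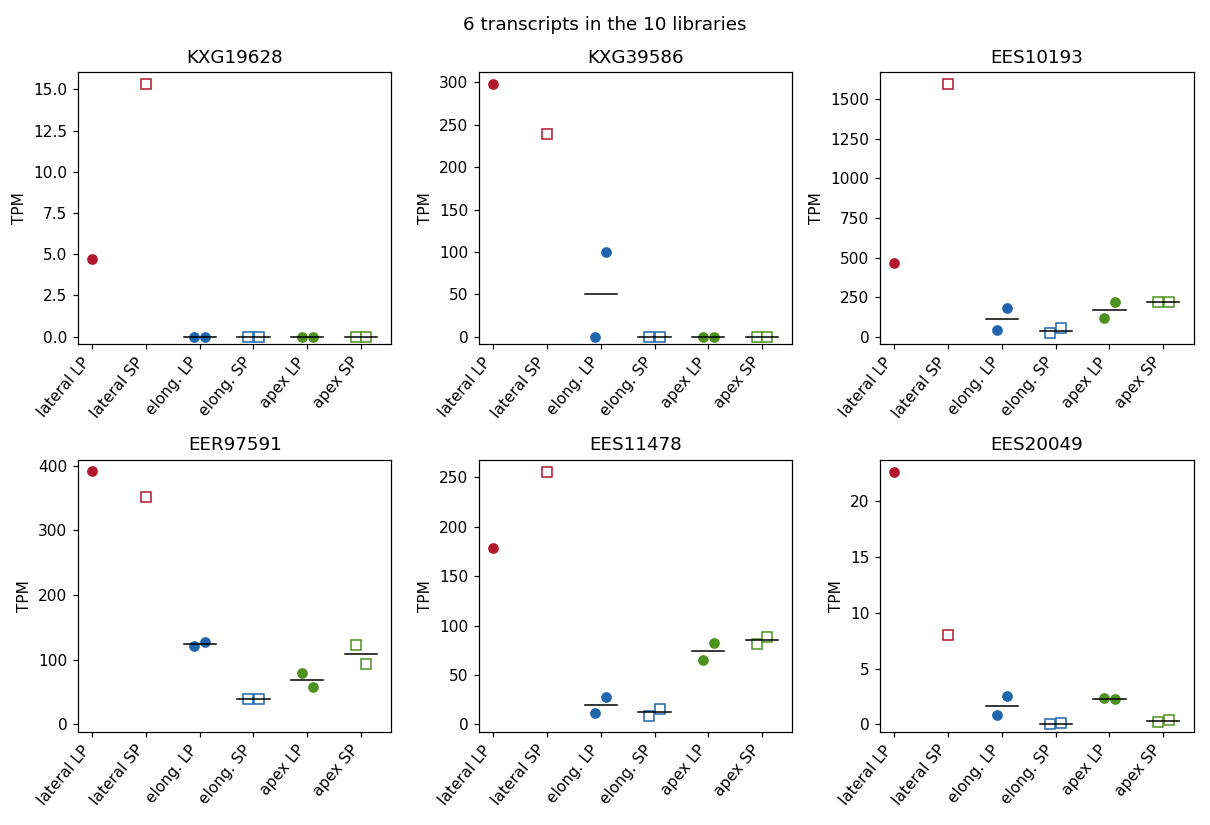
TPM (vertical axes, linear, a scale for each panel) of 6 transcripts in the 10 libraries, grouped by region and phosphorus level on the horizontal axes; filled circles are LP, open squares SP, and bars are means of 2 libraries. KXG39586 is at 99.6 TPM in 1 elongation zone LP library and near 0 in the other, while EER97591 has close replicates in the elongation zone.

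The second comparison was LP against SP in the elongation zone. Of the 35, 27 still pass the filter on low counts without the lateral libraries, and the other 8 pass it only through the libraries they were chosen to be high in. KXG19628, OQU91119, OQU81294 and OQU79787 have no counts in the elongation zone after rounding and could not be called there. EER97591 held 120.8 and 126.8 TPM under LP, against 39.3 and 39.8 TPM under SP, so that the groups did not overlap and the replicates lay close together. Its log2 fold change was 1.98 (SE 0.29, adjusted p = 0.0490, edgeR). It was the 1 transcript called higher, of the 35 as of the 27, where 0.415% of all tested transcripts were. No transcript of the set was called lower, where 0.233% of all were. At an unadjusted p under 0.05 there were 13, 12 of them higher. Of the 27, fitted without the lateral libraries, there were 11, all higher. In no comparison was the share of all tested transcripts at this cut counted, so these numbers have no reference. DESeq2 called 6, all higher, where it called 1433 higher and 738 lower of 27015 transcripts.

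The call for EER97591 sits at the threshold. Its log2 fold change stayed between 1.66 and 2.18 when any library of the main root was left out. Those fits leave 1 library in a group, so no p-value is given for them. With replicate number added to the edgeR model of all 10 libraries, the adjusted p was 0.0694. With the fragment length group added instead it was 0.0509. With only the 4 libraries of the elongation zone it was 0.190.

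Other transcripts were higher under LP in the elongation zone without passing the test. Both LP libraries were above both SP libraries by TPM for 15 of the 35, where 15.5% of all tested transcripts were, and below both for 1, OQU90149, where 31.9% were. The median log2 fold change was 1.76 over the 27, fitted without the lateral libraries, against 0.01 over all tested transcripts. Over the 35 it was 1.55, and it was 0.28 without LP replicate 2 and 2.14 without LP replicate 1. LP replicate 2 alone was above both SP libraries for 24 transcripts (24.5% of all tested), and LP replicate 1 alone for 16 (37.1% of all tested). LP replicate 2 was higher than LP replicate 1 for 26 transcripts, with a median ratio of 1.77, against 0.828 over the 13085 transcripts expressed in lateral tips. Of the main-root libraries left out in turn, elongation zone LP replicate 2 was the one without which the median over the 35 was lowest. That library also has the second highest number of missing transcripts and the fragment lengths of the lateral libraries. The part of either was not tested.

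EER91533 and EES20049 were among those with a higher level in both replicates. EER91533 held 11.1 and 27.6 TPM in the elongation zone under LP, against 3.74 and 3.89 TPM under SP (log2 fold change 2.76, SE 0.61, adjusted p = 0.111). Its log2 fold change was 1.57 without LP replicate 2, and 3.34 without LP replicate 1. EES20049 held 0.804 and 2.55 TPM under LP, against 0 and 0.156 TPM under SP (log2 fold change 4.44, SE 1.10, adjusted p = 0.143), on 14 and 47 counts against 0 and 3 counts. Its log2 fold change was 2.97 without LP replicate 2 and 5.06 without LP replicate 1. It was 7.78 without SP replicate 2, which leaves an SP group at 0 counts. With all libraries neither passed the test.

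In the root apex no transcript passed the test. KXG19628, OQU91119, OQU81294 and KXG39586 have no counts there after rounding and could not be called. EdgeR called 0 of the 35 and 0 of the 27, with 2 at an unadjusted p under 0.05, where it called 0.218% of all tested transcripts. DESeq2 called 1, which was higher under LP, where it called 392 higher and 760 lower of 25424 transcripts. Both LP libraries were above both SP libraries for 7 transcripts (12.8% of all tested) and below both for 10 (29.9% of all tested). The median log2 fold change was 0.10 over the 27, fitted without the lateral libraries, and 0.02 over all tested transcripts.

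EES20049 was again among the higher ones, with 2.33 and 2.25 TPM in the root apex under LP, against 0.196 and 0.390 TPM under SP (log2 fold change 3.11, SE 0.97, adjusted p = 0.338). Its LP libraries were thus above its SP libraries in each of the 3 regions, on few counts in the main root. EER97591 went the opposite way to its elongation zone response, with 79.7 and 58.5 TPM under LP, against 123.2 and 93.3 TPM under SP (log2 fold change -0.50, SE 0.28, adjusted p = 0.699).

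**Figure D3:**
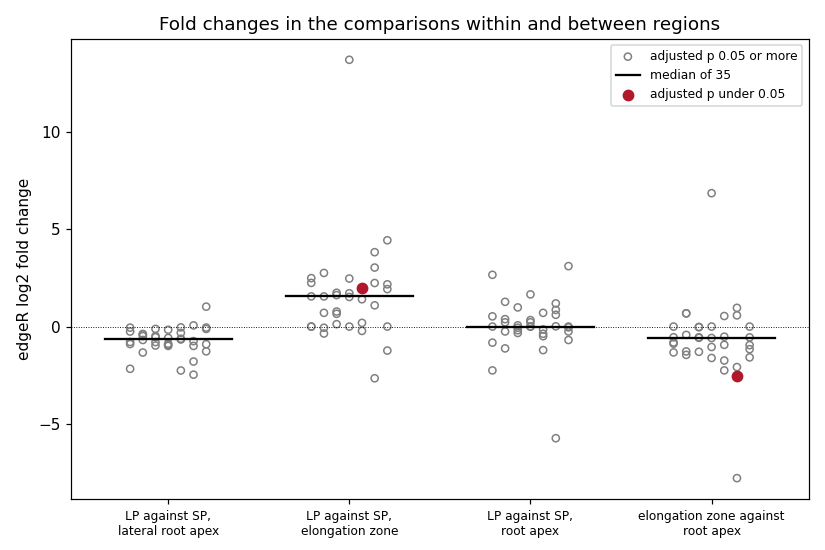
Points are edgeR log2 fold changes (vertical axis, TMM scaling) of the 35 transcripts in 4 comparisons (horizontal axis); filled points have an adjusted p under 0.05 and bars are medians. Filled points are EER97591 at 1.98 and EES11478 at -2.53. Of the 35, 8 pass the filter only through the lateral libraries, and those without counts in a comparison lie at 0 and enter its median; the points farthest from 0 belong to transcripts at 0 counts in a group, whose fitted values are no measure of size.

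The response to LP was then compared between regions. The lateral response minus the root apex response was called for 0 of the 35 by edgeR, where it called 0.505% of all tested transcripts. At an unadjusted p under 0.05 there were 0. DESeq2 also called 0, where it called 2179 of 23039 transcripts. The lateral response minus the elongation zone response was also called for 0 by edgeR, where it called 0.854% of all. At an unadjusted p under 0.05 there were 6. DESeq2 called 5 of the 35, all lower, where it called 3332 of 23833 transcripts, 1583 of them lower. In edgeR the median log2 value of the lateral minus the elongation zone response was -2.17 over the 35, against 0.19 over all tested transcripts. It was -2.62 without elongation zone LP replicate 1, against 0.61 over all. Without elongation zone LP replicate 2 it was -0.997, against 0.19 over all. A further contrast, added after the values were seen, was the elongation zone response minus the root apex response. EdgeR called 0 of the 35, where it called 0.0121% of all, with 4 at an unadjusted p under 0.05. DESeq2 called 2, where it called 918 of 24629 transcripts. The median of this further contrast over the 35 was 1.17. It was 1.79 without elongation zone LP replicate 1 and 0.10 without elongation zone LP replicate 2.

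EER97591 had the lowest adjusted p of the 35 in both contrasts that involve the elongation zone. Its response in the lateral root apex was -2.30 on the log2 scale relative to that in the elongation zone (SE 0.50, adjusted p = 0.0888). Its response in the elongation zone was 2.47 relative to that in the root apex (SE 0.41, adjusted p = 0.120). In lateral tips it held 392 TPM under LP and 351 TPM under SP, the highest levels of this transcript in the series.

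The last comparison set the elongation zone against the root apex, over both phosphorus levels. EES11478 held 11.7 and 27.7 TPM in the elongation zone under LP and 8.99 and 15.3 TPM under SP, against 65.7 and 82.9 TPM in the root apex under LP and 81.8 and 88.5 TPM under SP. No elongation zone library reached the lowest root apex library. The log2 fold change was -2.53 (SE 0.44, adjusted p = 0.0166, edgeR). EES11478 was the 1 transcript called lower, of the 35 as of the 27, where 4.71% of all tested transcripts were. None was called higher, where 5.64% of all were. With same-numbered libraries of a phosphorus level taken as 1 plant pool, edgeR called 6 of the 35, all lower. Over all, that fit called 4074 of 33039 transcripts, 2091 of them lower. At an unadjusted p under 0.05 there were 10, all lower. DESeq2 called 1 higher and 8 lower, where it called 3206 higher and 2708 lower of 29402 transcripts.

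The EES11478 call was lost without root apex SP replicate 1 (adjusted p = 0.0634) or 2 (0.0658) and without elongation zone SP replicate 1 (0.0752) or 2 (0.0564), with log2 fold changes between -3.10 and -2.19 over the 8 libraries left out. The median log2 fold change of the 35 was -0.59 with all libraries, against 0.05 over all tested transcripts. It was -0.48 without elongation zone LP replicate 1, against -0.12 over all. Without elongation zone LP replicate 2 it was -1.07, against 0.04 over all.

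Under SP, where neither elongation zone LP library enters, both elongation zone libraries were below both root apex libraries by TPM for 19 of the 35, where 16.4% of all tested transcripts were, and above both for 2, where 42.6% were. Under LP the numbers were 7 (15.5% of all tested) and 8 (27.3% of all tested). Among the 19 were EES00525, with 12.6 and 14.8 TPM in the elongation zone under SP, against 71.6 and 60.6 TPM in the root apex under SP, and EER91533, with 3.74 and 3.89 TPM against 13.9 and 15.0 TPM. EES10193 and EES02961, the most abundant of the set in the lateral SP library, were also among them. With the SP groups alone as the contrast, edgeR called 0 of the 35, where it called 303 of 33039 tested transcripts. At an unadjusted p under 0.05 there were 14, all lower in the elongation zone. DESeq2 was not run on this contrast.

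**Figure D4:**
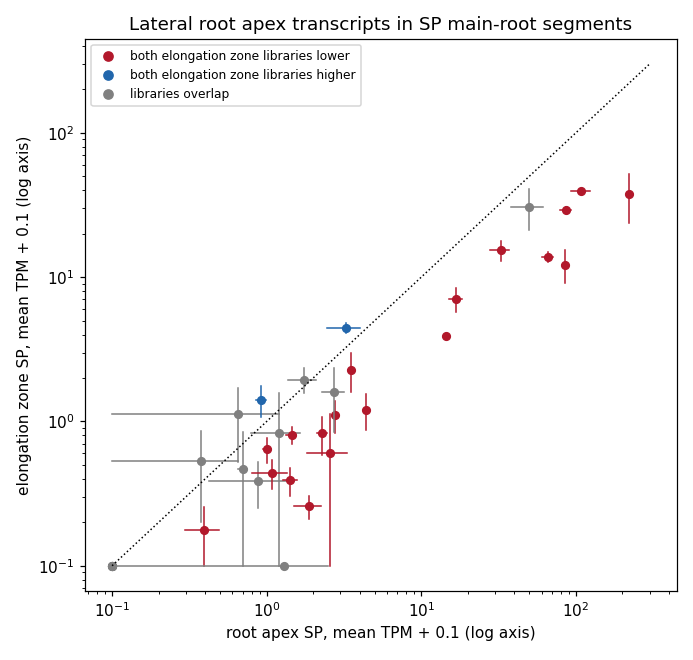
Mean TPM + 0.1 of the 35 transcripts in the elongation zone under SP (vertical log axis) against the root apex under SP (horizontal log axis); bars run between the 2 libraries and the dotted line marks equal levels. For 19 transcripts both elongation zone libraries are lower and for 2 both are higher.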

How the data were processed

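Poly-A RNA was measured in 10 libraries. The authors trimmed reads with Trimmomatic and ran kallisto against the sorghum annotation; the deposited files give estimated counts, which were not normalized, and TPM per transcript, with lengths and effective lengths. Tool versions: not given in the sources used here. The authors' methylation comparisons (differences, p-values and q-values) were not used. Groups came from the labels, phosphate levels and day from the methods.

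Membership was computed from TPM. Estimated counts were rounded, and counts rounding to 0 were taken as 0. Models were fitted with edgeR 4.0.16 under R 4.3.3 with limma 3.58.1, for 10 libraries in 6 groups (TMM, filterByExpr, quasi-likelihood test, 4 residual degrees of freedom). All 35 members were among the 33039 transcripts kept. P-values were adjusted by Benjamini-Hochberg over all of these, with a threshold of 0.05. DESeq2 1.42.0 was an alternative. The script was tested on simulated data. Lone lateral libraries were assumed to vary like replicates of other regions. The p-values set each difference against the spread between replicate libraries of the elongation zone and root apex, and no lateral spread enters them. SE is the fold change over the root of the F statistic.

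Named were transcripts paired with a gene (none), the 2 highest ratios, called transcripts (at most 2 each way per comparison), and those at the rule's edges. The members and lists were chosen with earlier results of these data known. Of 47110 IDs, 775 were paired with a gene by the supplementary tables and 0 matched the RefSeq gene table.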

Additional observations from a re-analysis of the deposited data

How the results depend on the processing

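Precision is limited by 2 libraries per group, and 1 in lateral tips. The number of transcripts meeting the rule was 39 at a minimum of 1 TPM, 21 at 5 TPM, 103 at a fold of 1.5, 7 at a fold of 4, and 36 to 79 without 1 library of the main root. With TMM-scaled CPM in place of TPM it was 158, which included 33 of the 35. Against only the elongation zone replicate 1 libraries it was 670, and against only the replicate 2 libraries 366. With only the LP lateral library it was 290 and with only the SP lateral library 610, both chosen after seeing the data. With DESeq2 the calls for LP against SP were 1 in the root apex and 6 in the elongation zone. There were 9 for elongation zone against root apex. The lateral minus the elongation zone response gave 5 and the elongation zone minus the root apex response 2. In each of these comparisons DESeq2 also called more transcripts than edgeR over all that were tested. With the replicate block the calls were 0 for LP against SP in the elongation zone, where 115 of 33039 transcripts were called over all. For elongation zone against root apex they were 5, where 3249 were called over all. Deviations of same-numbered libraries correlated at 0.00 to 0.23, with 4 of 6 pairs of groups under 0.1. Between the root apex and the elongation zone, which could share plants, the correlation was 0.23 under LP and 0.03 under SP. These values cannot show whether libraries share plants, and the main fit had no pairing. A block for fragment length gave 0 and 6 calls in these comparisons, where 173 and 1970 of 33039 were called over all. A block for plant pool gave 6 in the second, where 4074 were called over all. With only the 4 libraries of the elongation zone, LP against SP gave 0 calls, and 0 of 27945 over all. For elongation zone against root apex there were 3 calls with no filter on low counts, where 3458 of 41334 were called over all. There were 0 with either the SP or the LP libraries alone as the contrast, where 303 and 2263 of 33039 were called over all. Leaving out each library in turn gave 0 to 13 calls for LP against SP in the elongation zone, 0 to 9 for elongation zone against root apex, 0 to 10 for the lateral minus the elongation zone response, 0 to 2 for the elongation zone minus the root apex response, and 0 in the other comparisons. The cause of these changes was not tested. No fold change that was followed under the alternatives turned its direction. Those of EES02961 and EES00525 between the lateral libraries were not followed. TPM, by which the direction between the lateral libraries turns for 10 transcripts, was not among the alternatives for fold changes.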
